A study of Mus musculus with 13 samples.

Results

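The naive pluripotency network is represented here by 10 transcription factor genes, Nanog, Esrrb, Tcfcp2l1, Klf2, Klf5, Tbx3, Zfp42, Prdm14, Nr0b1 and Nr5a2, out of 20325 genes in the deposited tables. They were taken by name, and all 10 were found in every library and passed the filter on low counts. RNA sequencing had been carried out on mouse pre-iPSCs, cells derived from embryonic fibroblasts (MEFs) that stall partway to the induced pluripotent state, of wildtype (WT) or Kdm3b knockout (KO) genotype. Each genotype was sampled at the start and after 2 and 10 days of AA+2i, that is, ascorbic acid (50 µg/mL) with CHIR-99021, an inhibitor of GSK3, and PD-0325901, an inhibitor of MEK. There were 2 libraries, lettered A and B, in each of the 6 groups, and 1 library of V6.5 mouse embryonic stem cells (ESCs). All cells were grown in serum with LIF, and those carried to day 10 had been split on day 4. For day 0, the titles read DMSO but the treatment label reads AA+2i, and these libraries were taken as the start of the course. The ESC library carries the same treatment label with a time of 0hr, so whether it had received the compounds is uncertain, and with 1 library it has no replicate. The labels give neither the number of clones behind each genotype nor how the knockout was made, and they do not say whether A and B were separate cultures, so the p-values measure only the spread between these libraries, which may be technical.

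As background, naive pluripotency is the ground state of the preimplantation epiblast, which mouse ESCs keep in culture. It is held by a web of transcription factors that activate each other around Pou5f1 and Sox2. LIF acting through STAT3 feeds Tcfcp2l1 and some of the KLF genes. GSK3 inhibition relieves TCF7L1 repression of Esrrb and its partners, and MEK inhibition removes the FGF signal that pushes cells out of the state. KDM3B is a histone demethylase that acts on methylated H3K9.

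The promoters show how differently these genes are built. RefSeq promoter sequences (GRCm38.p6) were found for 7 of the 10 genes at 10 start sites, with Tcfcp2l1 listed as Tfcp2l1; Klf5, Tbx3 and Prdm14 are named only. The 250 bases before the Klf2 start held 29 CpG and those of Tcfcp2l1 16, against a median of 6 over 32851 promoters, whereas those of the listed Nanog starts held 3 and 2. Klf2 and Nanog are shown for this contrast by the 100 bases before the start, on the + strand, with each CpG in capitals. They lie at chr8:72318962-72319061 and chr6:122707389-122707488.
Klf2: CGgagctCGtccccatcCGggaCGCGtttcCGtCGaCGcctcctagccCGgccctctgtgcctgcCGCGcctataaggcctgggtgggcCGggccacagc
Nanog: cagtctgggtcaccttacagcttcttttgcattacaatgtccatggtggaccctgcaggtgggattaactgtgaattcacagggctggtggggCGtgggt

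Binding motifs of the network's own factors were searched on both strands in the same 250 bases. They were TCAAGGNCA, bound by orphan nuclear receptors such as ESRRB and NR5A2, GGGNGTGG for KLF proteins, the POU octamer ATTTGCAT, CTTTGAT for TCF/LEF and TTCCNGGAA for STAT proteins. Of all promoters in the table, 1.39% held the first, 15.9% the KLF motif, 1.6% the octamer, 3.21% the TCF/LEF motif and 0.913% the STAT motif. The Zfp42 promoter held 3 of the 5 motifs: an orphan receptor match 218 to 210 bases before the start, an octamer at 186 to 179 and a KLF match on the opposite strand at 75 to 68. Tcfcp2l1 held 2 KLF matches on the opposite strand, at 61 to 54 and 47 to 40 bases before the start. Zfp42 and Tcfcp2l1 are shown as a late and an early riser of the time course below. Capitals mark the matches, and the stretches are chr8:43307047-43307257 on the - strand and chr1:118627854-118627935 on the + strand.
Zfp42: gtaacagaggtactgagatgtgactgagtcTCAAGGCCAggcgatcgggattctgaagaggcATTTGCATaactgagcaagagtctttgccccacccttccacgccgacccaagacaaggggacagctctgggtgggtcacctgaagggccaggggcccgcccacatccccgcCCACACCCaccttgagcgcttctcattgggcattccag
Tcfcp2l1: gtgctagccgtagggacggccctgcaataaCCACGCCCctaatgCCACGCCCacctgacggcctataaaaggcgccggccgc

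Nanog held a KLF match 10 to 3 bases before its upstream start and 2 matches before the other, 1 of them in the same place, and Nr5a2 held 1 at its second listed start, 157 to 150 bases before it. None of the 5 motifs stood in the 250 bases before the Esrrb, Klf2 or Nr0b1 starts. A match describes the letters and is not a measured binding site.

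The libraries held between 14891294 and 26430050 expected counts. Levels below are CPM, the counts of a gene scaled to the library total. Differences were tested in edgeR over 14324 genes, and FDR is the Benjamini-Hochberg adjusted p of its quasi-likelihood test over all of them, with calls at FDR under 0.05. Kdm3b was lower in KO libraries at every day, by log2 changes of -1.98 (SE 0.38, FDR 0.013) at day 0, -2.71 (SE 0.39, FDR 0.0030) at day 2 and -2.67 (SE 0.39, FDR 0.0012) at day 10. Pou5f1, the defining marker of pluripotent cells, was detected in every library, with group means from 1326 to 6072 CPM. The labels do not say whether introduced reprogramming copies are present, and gene totals cannot separate them from the cells' own. Summed over 10 fibroblast markers, the ESC library stood at 265 CPM, with Col1a1 at 100.4 CPM, against 76.7 and 104 in WT day 10 libraries, 0.853 to 8.93 in KO libraries and 8.16 to 45.5 in the other WT libraries. Between 2 and 8 of the 10 were at 0 in each KO library, whereas at WT day 10 only Lum was at 0 in both libraries, with Twist2 at 0 in A. Most of the sum at WT day 10 came from Col1a1 (mean 63.5 CPM), and the next highest were Col1a2 (7.44) and Thy1 (7.06). The part of the fibroblast markers in the results was not tested. Nanog and Tcfcp2l1 had fractional counts, more than 0.005 from a whole number, in 13 of 13 libraries, so some of their reads were shared with other transcripts and their levels are less certain.

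At day 0 the network was already uneven. Klf5, Nr0b1 and Nr5a2 stood at or near the ESC level in WT cells while Esrrb, Tbx3 and Prdm14 were close to absent. Nr0b1, an orphan receptor without a usual DNA-binding domain, stood at 55.1 CPM in WT library A and 36.6 in B, and at 158 and 87.6 in the KO libraries, against 60.3 in ESCs. Nr5a2, an orphan receptor that activates Pou5f1, stood at 23.4 and 25.9 CPM in WT and 17.5 and 15.4 in KO, against 19.1 in ESCs. Klf5, a zinc finger activator, stood at 25.7 and 38.3 CPM in WT but 5.07 and 6.30 in KO, against 39.4 in ESCs. For both Klf5 and Nr5a2 every WT library was above every KO library. In bulk RNA, fewer cells of a type and less RNA per cell cannot be told apart, here and below.

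On a per-length scale, in TPM, the order of mean levels at WT day 0 was Nr0b1 (50.8), Klf5 (39.0), Nr5a2 (13.8), Klf2 (10.7), Tcfcp2l1 (5.91), Nanog (3.03), Zfp42 (2.85), Esrrb (0.22), Tbx3 (0.16) and Prdm14 (0.10). The ESC order was different, with Nanog (361 TPM), Zfp42 (196), Esrrb (112) and Klf2 (83.6) at the top and Nr0b1 (56.0) the fifth. Nanog, Zfp42 and Esrrb, which lead in stem cells, were among the 5 lowest at the start.

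**Figure D1:**
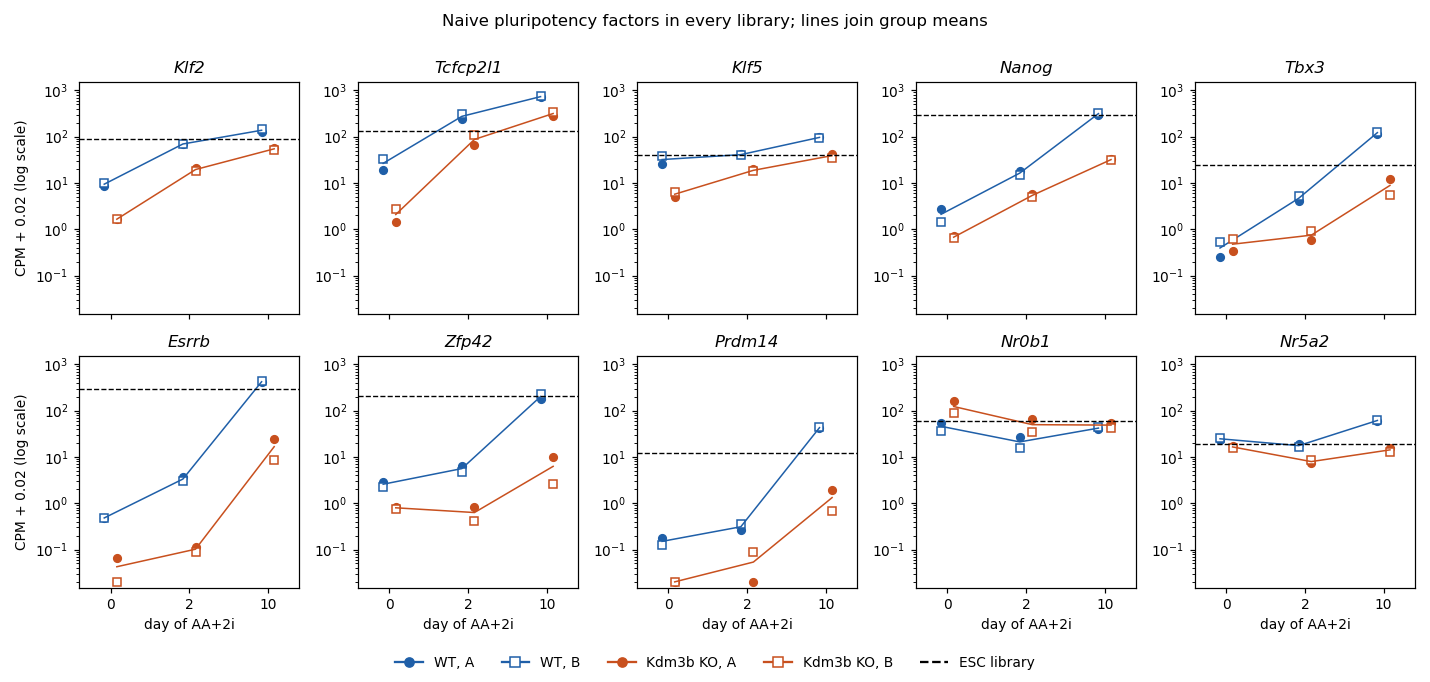
CPM plus 0.02 (log axis) of each factor in every library against the day of AA+2i (ordinal axis), with WT in blue, KO in orange, A as filled circles and B as open squares; lines join the group means and the dashed line is the ESC library. WT Nanog climbed to 298 and 331 CPM at day 10 while KO Nanog stood at 32.8 and 31.0, and Nr0b1 at day 10 stood at 39.7 and 44.2 in WT and 55.2 and 42.2 in KO, within or below its day 0 range.

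By day 2, 5 of the 10 factors were called higher in WT cells, Tcfcp2l1, Klf2, Nanog, Tbx3 and Esrrb, and none was called lower. Over all genes, 3.32% rose and 1.98% fell, and the median log2 change of the 10 was 1.94 against -0.0022 over all genes. Tcfcp2l1, a CP2-family factor downstream of LIF and STAT3, went from 19.5 and 33.5 CPM at day 0 to 245 and 304 at day 2, a log2 change of 3.35 (SE 0.35, FDR 0.0018). Klf2, a zinc finger activator, went from 8.63 and 10.1 CPM to 69.0 and 69.9, a log2 change of 2.86 (SE 0.18, FDR 0.00031). Both factors were already near or past the ESC level, which was 130 CPM for Tcfcp2l1 and 91.1 for Klf2.

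The other 3 rises at WT day 2 were large in ratio and small in level. Nanog, the homeodomain factor of the network's core, went from 2.77 and 1.40 CPM to 18.0 and 14.6 (log2 change 2.90, SE 0.33, FDR 0.0022). Tbx3, a T-box factor, went from 0.227 and 0.519 CPM to 4.06 and 5.22 (log2 change 3.63, SE 0.49, FDR 0.0043). Esrrb, an orphan nuclear receptor and a target of GSK3 inhibition, went from 0.454 and 0.467 CPM to 3.63 and 2.99 (log2 change 2.79, SE 0.54, FDR 0.021). In all 5 genes the day 2 libraries lay above the day 0 libraries without overlap. The Esrrb call was lost when any 1 of the 4 WT day 0 or day 2 libraries was left out (FDR 0.074 to 0.14), and the Tbx3 call without WT day 0 library A (FDR 0.058). Fitted on these 4 libraries alone, 3 of the 10 factors passed, and 119 genes over all.

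The remaining 5 did not pass at WT day 2. Zfp42 (Rex1), a zinc finger gene used as a marker of the naive state, stood at 6.48 and 4.68 CPM against 2.88 and 2.23 at day 0 (log2 change 1.08, SE 0.54, FDR 0.37). Prdm14, which restrains FGF signalling and DNA methylation genes, was covered by 12 counts over both day 2 libraries and 6 over both day 0 libraries. Klf5 stood at 42.0 and 39.7 CPM (log2 change 0.33, SE 0.20, FDR 0.48). Nr5a2 stood at 18.9 and 16.2 CPM (log2 change -0.52, SE 0.19, FDR 0.17), and Nr0b1 at 26.4 and 15.8 CPM (log2 change -1.16, SE 0.46, FDR 0.23). These last values lay below their day 0 values in every library, but the differences did not pass the test.

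KO cells at day 2 showed 4 rises, of Tcfcp2l1, Klf2, Nanog and Klf5, and a fall of Nr5a2, against 4.02% of all genes rising and 2.37% falling; the median log2 change of the 10 was 1.65, and 0.01 over all genes. KO Tcfcp2l1 went from 1.39 and 2.73 CPM to 65.1 and 109, a log2 change of 5.39 (SE 0.40, FDR 0.00022). KO Klf2 went from 1.62 and 1.64 CPM to 21.0 and 17.9 (log2 change 3.57, SE 0.19, FDR 9.4e-05). KO Nanog went from 0.682 and 0.624 CPM to 5.79 and 4.93 (log2 change 3.0, SE 0.37, FDR 0.0020). These 3 genes rose by day 2 in both genotypes, from a lower start in KO.

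KO Klf5 went from 5.07 and 6.30 CPM to 19.6 and 17.8 at day 2 (log2 change 1.71, SE 0.21, FDR 0.0020). Nr5a2 went the other way, from 17.5 and 15.4 CPM to 7.43 and 8.39 (log2 change -1.08, SE 0.19, FDR 0.011). The Nr5a2 call was lost without KO library A of either day (FDR 0.060 to 0.072). KO Tbx3 stood at 0.575 and 0.873 CPM, KO Zfp42 at 0.815 and 0.403, and KO Esrrb rested on 3 counts over both libraries against 1 at day 0, a ratio of 3.56 (95% counting interval 0.286 to 187). None of these 3 passed, and KO Prdm14 held 1 count at day 2 and 0 at day 0. Fitted on the 4 KO libraries of days 0 and 2 alone, none of the 10 factors and none of all genes passed in edgeR. DESeq2 on all 12 libraries called 5 of the 10. Over all genes it called 1507, where edgeR on the same libraries called 576 higher and 339 lower.

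Between day 2 and day 10 the WT cells filled in the rest of the network. Against day 0, 9 of the 10 factors were higher at WT day 10, all but Nr0b1, where 21% of all genes rose and 13.1% fell. The median log2 change of the 10 was 5.49, against -0.03 over all genes tested. Against day 2 the count was also 9 higher and none lower, all but Nr0b1, with 18.3% of all genes higher and 11.2% lower. Nr0b1 was higher in both day 10 libraries than in either at day 2 without passing (log2 change 0.95, SE 0.46, FDR 0.16), and passed in a fit of those 4 libraries alone (FDR 0.044). Klf5, Zfp42, Prdm14 and Nr5a2 passed against day 0 at day 10 but not at day 2.

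The steepest of these late rises were in genes that had been nearly silent. WT Esrrb reached 408 and 434 CPM, a log2 change of 6.96 against day 2 (SE 0.53, FDR 0.00010) and 9.75 against day 0 (SE 0.62, FDR 2.9e-05). WT Prdm14 reached 41.3 and 44.5 CPM from 0.242 and 0.338 at day 2 (log2 change 7.16, SE 0.58, FDR 0.00017). WT Zfp42 reached 178 and 225 CPM, a log2 change of 5.14 against day 2 (SE 0.59, FDR 0.00045). Most of the Esrrb, Zfp42 and Prdm14 rise came after day 2, as did most of the Tbx3 and Nanog rise. WT Tbx3 reached 116 and 128 CPM (4.70 against day 2, SE 0.42, FDR 0.00016, and 8.33 against day 0, SE 0.53, FDR 2.9e-05). WT Nanog reached 298 and 331 CPM (4.24 against day 2, SE 0.33, FDR 0.00011, and 7.13 against day 0, SE 0.39, FDR 2.1e-05).

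Tcfcp2l1 and Klf2, which had moved early, rose less, and so did the factors that had started high. Nanog, Tbx3 and Esrrb had also risen by day 2 but climbed further. WT Tcfcp2l1 reached 711 and 752 CPM (log2 change 1.40 against day 2, SE 0.33, FDR 0.012) and WT Klf2 128 and 147 (0.96, SE 0.17, FDR 0.0031). The Tcfcp2l1 step from day 2 to day 10 was lost when any 1 of the 4 libraries compared was left out (FDR 0.057 to 0.090). WT Klf5 reached 97.4 and 95.1 CPM (log2 change 1.54 against day 0, SE 0.20, FDR 0.00056). WT Nr5a2 reached 58.9 and 63.7 CPM (1.26, SE 0.19, FDR 0.0011), and WT Nr0b1 stood at 39.7 and 44.2, within the spread of its day 0 libraries (log2 change -0.20, SE 0.46, FDR 0.78). Germ cell and trophectoderm markers also stood higher in these libraries: the sum over 5 germ cell markers was 273 and 228 CPM at WT day 10 against 2.69 and 1.72 at KO day 10 and 86.1 in ESCs, and the sum over 7 measured trophectoderm markers was 161 and 181 against 17.4 and 10.1 in KO and 253 in ESCs. Of these, Mael was at 0 in KO library B, and Elf5 was at 0 in both KO libraries and WT library B. Most of the trophectoderm sum at WT day 10 came from Krt8 (mean 122.6 CPM) and Krt7 (27.0). Hand1 (6.38 CPM), Gata3 (4.36), Cdx2 (0.631) and Elf5 (0.083) were far lower there, so the sum does not speak for every marker. The part of the germ cell and trophectoderm markers in the results was not tested.

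KO cells also raised most of the factors, to lower levels. At KO day 10, 8 of the 10 factors were higher than at day 0, all but Nr0b1 and Nr5a2, where 9.93% of all genes rose and 5.19% fell, with a median log2 change of 4.61 for the 10 and -0.01 for all genes. Nr0b1 was lower in both KO day 10 libraries than in either at day 0 but did not pass in edgeR (log2 change -1.42, SE 0.46, FDR 0.076); it passed in DESeq2 (adjusted p 0.025) and in edgeR without either KO day 2 library (FDR 0.047 and 0.050). Against KO day 2 the count was also 8 higher and none lower, with 2.49% of all genes higher and 0.607% lower. KO Tcfcp2l1 reached 286 and 346 CPM (log2 change 7.21 against day 0, SE 0.43, FDR 4.8e-05). KO Klf2 reached 58.0 and 51.1 CPM (5.0, SE 0.20, FDR 8.6e-06), and KO Klf5 43.0 and 34.8 (2.71, SE 0.21, FDR 0.00012). KO Nanog reached 32.8 and 31.0 CPM (5.52, SE 0.38, FDR 7.7e-05). These 4 had also risen by day 2.

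The other 4 KO rises were late, low and uneven between libraries. KO Esrrb stood at 24.8 CPM in library A and 8.48 in B at day 10, from 1 count over both libraries at day 0, a ratio of 701 (counting interval 125 to 27725). KO Zfp42 stood at 9.87 and 2.60 CPM (log2 change 2.93 against day 0, SE 0.62, FDR 0.014). KO Tbx3 stood at 12.2 and 5.45 CPM (4.21, SE 0.48, FDR 0.00070). KO Prdm14 stood at 1.94 and 0.666 CPM, which is 42 counts over both libraries against 0 at day 0, at least 18.3-fold higher against a floor of 3 counts over the day 0 group.

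Library A exceeded B in all 4 of these genes at KO day 10, by 2.93-fold for Esrrb, 2.24-fold for Tbx3, 3.79-fold for Zfp42 and 2.91-fold for Prdm14. The same ratio was 1.06 for Nanog, 1.14 for Klf2, 1.23 for Klf5, 1.31 for Nr0b1, 1.19 for Nr5a2 and 0.826 for Tcfcp2l1. So the libraries disagreed on the late factors and were close on the others. Kdm3b in the same libraries stood at 19.8 CPM in A and 41.5 in B, and its part in the result was not tested. The Zfp42 rise over day 0 was lost without KO day 10 library A (FDR 0.067) or without either KO day 0 library (FDR 0.068 and 0.078).

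The rises from KO day 2 to KO day 10 were the least secure of the time comparisons. Zfp42 lost its call for 10 of the 12 libraries, each left out in turn (FDR 0.051 to 0.18), Klf5 for 8 libraries (0.067 to 0.23), Tcfcp2l1 for 7 (0.054 to 0.14), Prdm14 for 6 (0.050 to 0.10) and Tbx3 without KO day 2 library A (0.058). Between 3 and 8 of the 10 passed in these fits, the lowest count without KO day 2 library A. In edgeR none passed in a fit of those 4 libraries alone, nor did any other gene. DESeq2 on all 12 libraries called 9. Over all genes it called 1320, where edgeR on the same libraries called 357 higher and 87 lower. Nr0b1 in KO stood at 64.9 and 34.6 CPM at day 2 and 55.2 and 42.2 at day 10, and Nr5a2 at 15.4 and 12.96 CPM at day 10, close to its day 0 level (log2 change -0.28, SE 0.19, FDR 0.39).

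Distance from the stem cell level was compared between the genotypes factor by factor. It did not separate them for every factor, as Nr0b1 at day 10 stood at 69.5% of the ESC level in WT and 80.7% in KO. All 10 factors stood at 50% or more of the ESC library at WT day 10, and 5 did at KO day 10, namely Tcfcp2l1, Klf2, Klf5, Nr0b1 and Nr5a2. Among all 9311 genes at 10 CPM or more in ESCs, 93.2% passed this mark at WT day 10 and 85.5% at KO day 10. A closer background is the 376 genes at least 8-fold higher in ESCs than in every day 0 library, of which 50.3% passed at WT day 10 and 0.798% at KO day 10. That set includes 6 of the 10 factors, Nanog, Esrrb, Klf2, Tbx3, Zfp42 and Prdm14, and its median stood at 51.6% of the ESC level in WT and 3.82% in KO. Of those 6, all passed at WT day 10 and 1, Klf2, at KO day 10. The other 4 factors are outside the set and passed in both genotypes, and of these Nr0b1, at 204%, and Nr5a2, at 86.1%, were past the mark already at KO day 0.

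WT cells at day 10 stood at the level of the ESC library for some factors and overshot it for others. Nanog stood at 108% of it, with libraries at 102% and 114%, and Zfp42 at 95.2%, with libraries at 84.0% and 106%. Tcfcp2l1 stood at 562%, Tbx3 at 506%, Prdm14 at 348%, Nr5a2 at 322% and Klf5 at 244%. Klf2 was at 151%, Esrrb at 146% and Nr0b1 at 69.5%. The ESC values of Prdm14 (12.3 CPM, with a 95% counting interval of 10.9 to 14.0), Nr5a2 (19.1) and Tbx3 (24.1) are low, and an ESC level known from 1 library has no measured spread.

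In KO cells at day 10 the factors fell into a near group and a far group. Tcfcp2l1 stood at 243% of the ESC level, Klf5 at 98.7%, Nr0b1 at 80.7%, Nr5a2 at 74.4% and Klf2 at 59.9%. Tbx3 stood at 36.6%, with library A at 50.6% and B at 22.6%. Nanog stood at 10.96%, Prdm14 at 10.5%, Esrrb at 5.76% and Zfp42 at 2.95%. Nanog was even between the KO libraries, at 11.3% and 10.7%, while Zfp42 ran from 1.23% to 4.66%.

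**Figure D2:**
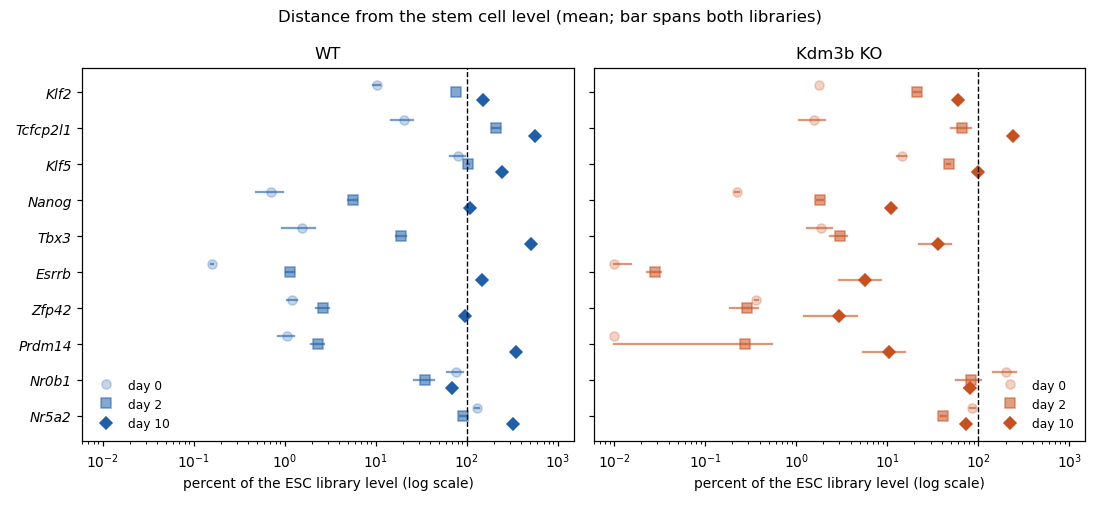
Level of each factor as a percentage of the ESC library (log axis), WT on the left and KO on the right; symbols are means of 2 libraries, bars span both, and values under 0.01% are drawn at 0.01%. At day 10 all WT diamonds lie at 69.5% or above, whereas in KO Zfp42 lies at 2.95% and Esrrb at 5.76%.

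Early in the course the same percentages placed only a few factors near the stem cell level. At WT day 2 Tcfcp2l1 was at 211%, Klf5 at 103.5%, Nr5a2 at 91.9% and Klf2 at 76.2%, but Nanog was at 5.60%, Zfp42 at 2.64%, Prdm14 at 2.35% and Esrrb at 1.15%. At KO day 2 Nr0b1 was at 82.5%, Tcfcp2l1 at 67.0%, Klf5 at 47.4% and Klf2 at 21.3%, and Nanog was at 1.84%. Nanog in KO at day 10 (31.9 ± 1.22 CPM, SD, n = 2) lay between its WT day 2 level (16.3 ± 2.41) and its WT day 10 level (314 ± 23.8).

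On the per-length scale the ranking of the 10 at WT day 10 began as in ESCs, with Nanog (456 TPM), Zfp42 (218) and Esrrb (192) first, and Tcfcp2l1 (150), Klf2 (147) and Klf5 (109) after them. At KO day 10 the highest were Tcfcp2l1 (62.9 TPM), Klf2 (56.9), Nr0b1 (51.5), Nanog (45.0) and Klf5 (42.8), and Esrrb (7.41), Nr5a2 (7.29), Zfp42 (6.60), Tbx3 (3.27) and Prdm14 (0.945) followed. Zfp42 and Esrrb, next after Nanog in ESCs, thus stood well down the order in KO cells.

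The order of activation was described by the share of each factor's log2(CPM + 0.5) rise from day 0 to day 10 that was present by day 2, for factors whose rise was at least 1 on that scale. The range over the 8 combinations of 1 library per day is given as the spread. In WT, Klf2 had 74.2% of its rise by day 2 (71.4 to 77.3) and Tcfcp2l1 70.3% (63.8 to 76.2). Nanog followed with 39.0% (33.1 to 45.0) and Tbx3 with 35.9% (31.0 to 40.7). Within each of these pairs the ranges overlapped, so the order inside a pair was not resolved, but the pairs were clear of each other.

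Lower in the WT order came Esrrb with 22.6% (21.0 to 24.2), Klf5 with 22.1% (3.96 to 37.3), Zfp42 with 16.4% (10.2 to 22.4) and Prdm14 with 5.34% (2.90 to 7.73). The wide Klf5 range overlapped those of all its neighbours, and Esrrb overlapped Zfp42, while Prdm14 lay below every other factor except Klf5 and Nr5a2. Nr5a2 had a share of -37.1% (-56.9 to -21.1), its mean level at day 2 being below that at day 0, a difference that did not pass the test. Nr0b1 had no rise of at least 1.

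In KO Tcfcp2l1 led with 73.3% (64.4 to 80.9), followed by Klf2 with 68.8% (65.1 to 72.5) and Klf5 with 61.2% (53.3 to 69.5), and their ranges overlapped. Nanog came next at 48.8% (45.7 to 51.7), below all 3. Tbx3 at 10.9% (-1.10 to 26.3), Prdm14 at 5.07% (0 to 14.9), Esrrb at 3.07% (1.04 to 6.08) and Zfp42 at -8.43% (-42.9 to 6.04) formed an unresolved late group. On this log scale the ranges of Tbx3, Esrrb and Zfp42 in KO lay below their ranges in WT, and those of Klf5 and Nanog lay above. The KO Esrrb share rests on 3 counts at day 2 and 1 at day 0, and the ranges do not cover counting error. The 0.5 CPM added before the logarithm weighs on the low genes, and with 0.1 CPM the Esrrb share was 27.3% in WT and 8.01% in KO, and the Prdm14 share 10.1% in WT and 10.97% in KO. KO Nr0b1 and Nr5a2 had no rise of at least 1.

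The log scale sets the size of these shares. On the linear CPM scale the leaders stayed ahead, with 46.9% for Klf2 and 35.2% for Tcfcp2l1 in WT, but Klf5, at 13.8%, came before Nanog at 4.55%, Tbx3 at 3.51% and Esrrb at 0.678%. In KO the linear shares were 39.2% for Klf5, 33.7% for Klf2, 27.1% for Tcfcp2l1 and 15.1% for Nanog. The linear KO ranges of Klf5 and Nanog still lay above those in WT. Those of Tbx3 (-0.416 to 10.9 in KO, 2.77 to 4.33 in WT), Esrrb (0.0900 to 1.13, 0.583 to 0.778) and Zfp42 (-22.5 to 3.80, 0.811 to 2.42) overlapped.

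**Figure D3:**
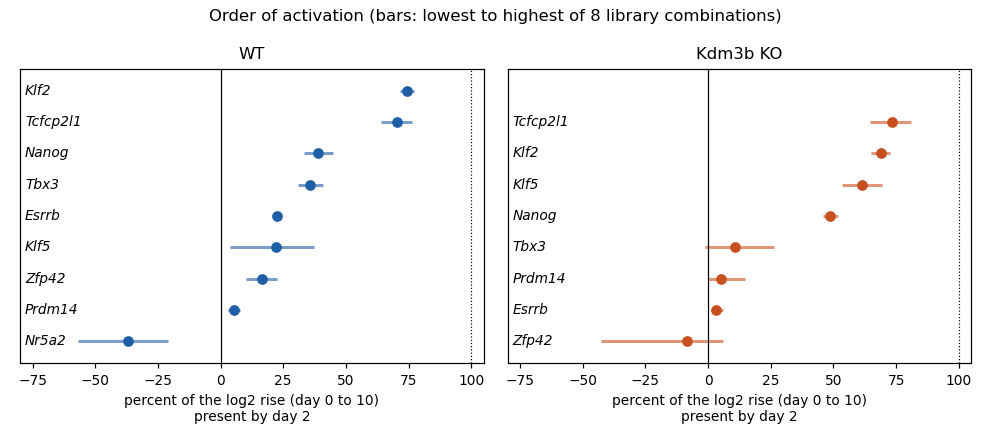
Percentage of the log2(CPM + 0.5) rise from day 0 to day 10 present by day 2, WT on the left and KO on the right; points use group means and bars run from the lowest to the highest of 8 combinations of 1 library per day. Klf2 and Tcfcp2l1 lie at 68.8% or more in both panels and Prdm14 at about 5.34% and 5.07%.

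Set against WT on the same day, 4 factors were called lower in KO at day 0, 8 at day 2 and 9 at day 10, and none was called higher. Over all genes, 5.59% were lower in KO and 2.69% higher at day 0, 6.16% lower and 4.29% higher at day 2, and 19.9% lower and 12.4% higher at day 10. The median log2 difference of the 10 was -2.05, -1.68 and -2.66 on the 3 days, and that of all genes 0.0036, 0.02 and -0.02. At day 0 the 4 were Tcfcp2l1 (log2 difference -3.63, SE 0.37, FDR 0.00075), Klf2 (-2.47, SE 0.19, FDR 0.00021), Klf5 (-2.43, SE 0.21, FDR 0.00035) and Nanog (-1.64, SE 0.38, FDR 0.031). The Nanog call was lost without WT day 0 library A, either KO day 0 library or either WT day 10 library (FDR 0.055 to 0.14). The lower levels of these factors were thus already seen in the day 0 libraries.

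The nuclear receptors differed among themselves at day 0. Nr0b1 was higher in every KO library than in every WT library, but the difference did not pass (log2 difference 1.48, SE 0.46, FDR 0.098). It passed in DESeq2 (adjusted p 0.028). Nr5a2 did not pass either (-0.53, SE 0.19, FDR 0.14). Esrrb was covered by 21 counts over both WT libraries and 1 over both KO libraries, a ratio of 19.5 (counting interval 3.14 to 806), and its edgeR difference did not pass (FDR 0.070), though it did without either KO day 10 library (FDR 0.0090). Tbx3 stood at 0.314 and 0.596 CPM in KO, and its 2 groups overlapped.

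At day 2 the 8 lower factors were all but Prdm14 and Nr0b1. Klf2 (-1.76, SE 0.17, FDR 0.00053), Tcfcp2l1 (-1.59, SE 0.33, FDR 0.016), Nanog (-1.53, SE 0.31, FDR 0.015), Nr5a2 (-1.08, SE 0.19, FDR 0.0075) and Klf5 (-1.05, SE 0.20, FDR 0.011) differed by the smaller amounts. Zfp42 (-3.06, SE 0.64, FDR 0.017) and Tbx3 (-2.62, SE 0.46, FDR 0.0075) differed by more. Esrrb rested on 137 counts in WT and 3 in KO, a ratio of 39.4 (counting interval 13.2 to 194) (FDR 0.0032). For Prdm14 the counts were 12 and 1, a ratio of 10.4 (1.53 to 443, FDR 0.15), and Nr0b1 was 1.31 higher on the log2 scale in KO (SE 0.47, FDR 0.12).

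These day 2 calls depended on single libraries. Between 3 and 8 factors passed when 1 library was left out: 3 without WT library A of day 2, and 5 without either KO library of day 2. Tcfcp2l1 (FDR 0.055 to 0.10), Klf5 (0.051 to 0.080) and Zfp42 (0.052 to 0.10) each lost the call for 3 libraries, Nanog for 2 (0.071 and 0.086), and Nr5a2 and Tbx3 for 1 each (0.058). Fitted on the 4 day 2 libraries alone, 1 factor passed, and 79 genes over all.

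At day 10 the gap was widest for Prdm14, Zfp42 and Esrrb. Prdm14 was lower in KO by -4.99 on the log2 scale (SE 0.50, FDR 0.00035), Zfp42 by -4.97 (SE 0.59, FDR 0.00047), Esrrb by -4.62 (SE 0.47, FDR 0.00025), Tbx3 by -3.74 (SE 0.40, FDR 0.00031) and Nanog by -3.25 (SE 0.32, FDR 0.00020). Nr5a2 differed by -2.06 (SE 0.19, FDR 0.00017), Klf2 by -1.29 (SE 0.17, FDR 0.00072), Klf5 by -1.26 (SE 0.20, FDR 0.0018) and Tcfcp2l1 by -1.16 (SE 0.32, FDR 0.024). In each of these 9 genes both WT libraries exceeded both KO libraries. The Tcfcp2l1 call was lost without any 1 of the 4 day 10 libraries (FDR 0.091 to 0.17). Nr0b1 did not pass (0.26, SE 0.46, FDR 0.73; 95% limits on 6 degrees of freedom -0.86 to 1.38), which does not show equal levels. Neural markers, 5 in all, summed to 438 and 471 CPM in these KO libraries and 137 and 130 in WT, and their part in the result was not tested.

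**Figure D4:**
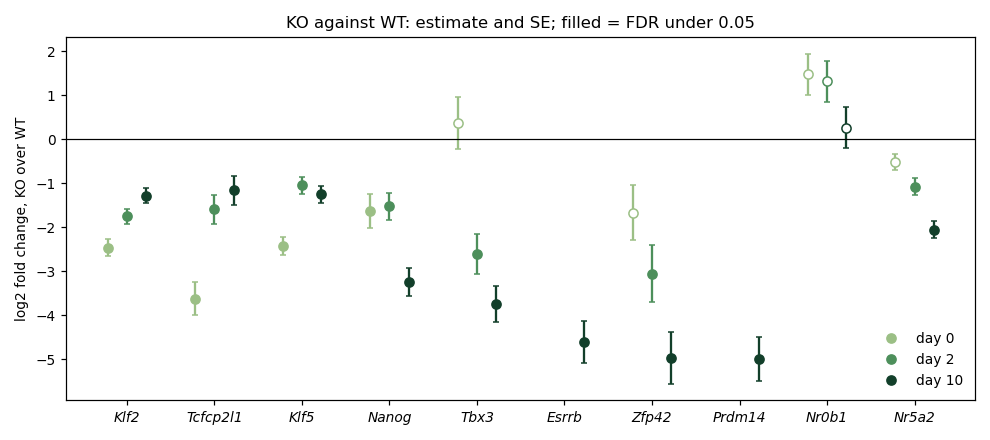
Log2 difference of KO from WT with its SE at day 0 (light), day 2 (mid) and day 10 (dark), with filled symbols for FDR under 0.05; Esrrb and Prdm14 at days 0 and 2 are left out because their KO libraries held 3 counts or fewer. Tcfcp2l1 runs from -3.63 at day 0 to -1.16 at day 10, and Nanog from -1.64 to -3.25.

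Whether the change over time itself differed between genotypes was tested as an interaction. From day 0 to day 10, 6 of the 10 factors differed, 3 with a larger rise in KO and 3 with a smaller one, where 6.35% of all genes had a higher and 6.2% a lower change in KO. The larger KO rises were of Tcfcp2l1 (2.46 on the log2 scale, SE 0.48, FDR 0.011), Klf2 (1.18, SE 0.25, FDR 0.016) and Klf5 (1.17, SE 0.28, FDR 0.029). These were the 3 factors furthest below WT at day 0 among those called there. The day 0 difference is itself part of the interaction value, so this is not a separate result. The smaller changes in KO were of Tbx3 (-4.12, SE 0.71, FDR 0.0069), Zfp42 (-3.30, SE 0.83, FDR 0.034) and Nr5a2 (-1.54, SE 0.26, FDR 0.0067). Nanog did not pass (-1.62, SE 0.49, FDR 0.066) but did in DESeq2 (adjusted p 0.017) and with library totals alone (0.042). Esrrb and Prdm14 cannot be compared this way, because their KO day 0 libraries held 1 and 0 counts.

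Leaving out 1 library left between 2 and 6 of these interaction calls, with 2 left without WT day 10 library A or without KO day 0 library B. Klf5 lost its call for 7 libraries (FDR 0.052 to 0.11), Zfp42 for 6 (0.076 to 0.11), Klf2 for 3 (0.053 to 0.069), Tcfcp2l1 for 2 (0.054 and 0.055) and Tbx3 for 1 (0.064). The Nr5a2 call stood in every one of these fits. From day 0 to day 2 no factor passed in edgeR, where 0.126% of all genes had a higher and 0.0698% a lower change in KO. Unadjusted p was under 0.05 for 4 factors, and 3 passed in DESeq2, namely Tcfcp2l1 (adjusted p 0.0048), Klf5 (0.0045) and Tbx3 (0.021). Over all genes DESeq2 called 220 in this interaction, where edgeR called 18 higher and 10 lower.

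Other genes of the network were followed as a list of 20 partners, 19 of them in the tables and tested. At WT day 10 against day 0, 12 of the 19 rose and 2 fell, where 21% of all genes rose and 13.1% fell. At KO day 10 against day 0, 11 rose and 1 fell, against 9.93% and 5.19% of all genes. In KO against WT at day 10, 12 were lower and 1 higher, against 19.9% and 12.4% of all genes, with a list median of -1.43 and -0.02 over all genes. Tcl1, a co-activator of AKT signalling, stood at 67.98 CPM in WT and 1.58 in KO at day 10 (log2 difference -5.38, SE 0.50, FDR 0.00016). Fgf4, the growth factor of the epiblast, stood at 291 and 53.8 CPM (-2.39, SE 0.23, FDR 0.00020). Tdgf1, a Nodal co-receptor, stood at 629 and 76.5 CPM (-2.99, SE 0.30, FDR 0.00022), and Otx2, a factor of the exit from the naive state, at 27.6 and 2.66 CPM (-3.33, SE 0.34, FDR 0.00038). The 1 partner that was higher, Stat3, named after its values were seen, stood at 289 CPM in KO and 177 in WT (0.75, SE 0.15, FDR 0.0056). As background, Stat3 transmits the LIF signal that feeds Tcfcp2l1, and any link between the levels of these genes here was not tested.

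Pou5f1 and Klf4, the 2 partners that fell in WT from day 0 to day 10, were also named after their values were seen. Pou5f1 went from 3925 and 7662 CPM to 1265 and 1387 (log2 change -2.16, SE 0.55, FDR 0.015), and Klf4 fell by 2.14 on the log2 scale (SE 0.65, FDR 0.031). In both genes the day 0 libraries differed widely between A and B.

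Genes of the primed epiblast, the later state, did not move as a block. Of 12 listed genes 9 were tested, and at WT day 10 against day 0, 4 rose and 3 fell, against 21% and 13.1% of all genes. In KO against WT at day 10, 4 were lower and 3 higher, against 19.9% and 12.4% of all genes. Dnmt3b, a de novo DNA methyltransferase, stood at 72.5 CPM in WT and 16.1 in KO (log2 difference -2.13, SE 0.21, FDR 0.00020), against 546 in ESCs. Eomes, a T-box factor also expressed in trophectoderm, was lower by -2.38 (SE 0.36, FDR 0.0014). Cdh2, N-cadherin, was higher in KO, at 55.8 against 3.25 CPM (4.14, SE 0.64, FDR 0.0016).

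The factors' profiles over the 12 pre-iPSC libraries were compared with those of 9986 genes of at least 5 CPM on average, by Pearson's r of log2(CPM + 0.5), as a description in which all points share the same libraries and day structure. Klf2 and Tcfcp2l1 were among each other's 3 most alike genes (r = 0.987), and both lists held Klf6 and Foxh1. Esrrb was closest to Basp1 (0.994), Lefty2 and Mageb16. Tbx3 was closest to Lefty1 (0.994), Mageb16 and Esrrb (0.986). Zfp42 was closest to Utf1 (0.996), Dmrt1 and Gpx2, and Prdm14 to Dnajc6 (0.999), Lpar1 and Triml1.

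Nanog stood between the early and late profiles, with r of 0.962 to Tbx3, 0.954 to Esrrb, 0.917 to Klf2 and 0.890 to Tcfcp2l1. Its most alike genes were Cpsf4l (0.990), Gga2 and Fabp3. Klf5 was most like Tcf7l1 (0.975), Trap1a and Hook1, and Nr5a2 most like Atg13 (0.975), Nup133 and Ak4. Nr0b1 was the least like the other factors, with r of -0.727 to Tcfcp2l1 and -0.422 to Nanog, and its most alike genes, Lzic (0.933), Hacl1 and Ppm1d, were outside the network.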

How the data were processed

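The authors deposited, per sample, a table of RSEM expected counts and TPM per gene; Bowtie2, RSEM and the mm9 build are named in the submitters' processing notes, without versions. The deposited TPM values were used only for levels between genes. Expected counts were rounded and fitted in edgeR 4.0.16 (R 4.3.3; TMM, filterByExpr, glmQLFit and glmQLFTest) with 6 groups of 2 libraries and no covariates, sharing 1 estimate of the spread (common BCV 0.266, 6 residual degrees of freedom); DESeq2 1.42.0 was an alternative. Benjamini-Hochberg adjustment ran over all 14324 genes tested. The ESC library entered no test. CPM used library totals of 14891294 to 26430050. Counting intervals (95%) and the floor of 3 counts cover counting error only. Strand use in counting is not given in the sources used here. The 10 factors are all named; from each of the partner and primed lists up to 4 genes were named, those called with the lowest FDR in KO against WT at day 10, and for each factor the 3 most alike genes. Members and lists were chosen with earlier results of these data known. Of the listed genes, Tfe3, Tfap2c, Tcstv1 and Tcstv3 are not analysed here. From the primed list, 1 gene that the naming rule would give is not reported here. The edgeR fit was tried on simulated counts of independent libraries with a fixed spread. These did not hold the A minus B differences shared among groups that are described below, so the trial does not cover them. Alternatives tried were other size factors, no filter, DESeq2, the replicate block, the compared libraries only and leaving out each library, and for levels and shares other library sizes, pseudocounts and the linear scale.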

Additional observations from a re-analysis of the deposited data

Results flagged for a closer look

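For 6 factors the change from day 0 to day 10 differed between the genotypes by the interaction test in edgeR, given here as the KO change less the WT change on the log2 scale. Tcfcp2l1 (2.46), Klf2 (1.18) and Klf5 (1.17) changed more in KO, and each was lower in KO at day 0 and still lower at day 10. Tbx3 (-4.12), Zfp42 (-3.30) and Nr5a2 (-1.54) changed less in KO. The Tbx3 and Zfp42 values rest in part on KO day 10 libraries that differed by 2.24-fold and 3.79-fold, and the part of that spread in the result was not tested.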

How the results depend on the processing

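The count of factors at 50% or more of the ESC level was 10 in WT and 5 in KO under every library scaling tried, and 6 in KO without library B, where Tbx3 passed the mark. Counts of called factors stayed within 1.5 times under the other size factors, library totals alone and no filter. Fits of only the libraries compared left 3 called factors at WT day 2 against day 0, 0 at KO day 2 against day 0, 0 at KO day 10 against day 2 and 1 for KO against WT at day 2. Over all genes these fits called 119, 0, 0 and 79 in the same order. DESeq2 called 3 in the interaction to day 2, and 220 genes over all. Leaving out 1 library gave 3 to 5 at WT day 2, 3 to 8 at KO day 10 against day 2, 3 to 8 for KO against WT at day 2 and 2 to 6 in the interaction to day 10. It turned the sign of these log2 values, none of them called: Nr0b1 at WT day 10 against day 0 (-0.51 to 0.18), KO day 10 against day 2 (-0.48 to 0.50) and the interaction to day 2 (-0.76 to 0.39); Zfp42 at KO day 2 (-1.01 to 0.078) and its KO share by day 2 (-20.8% to 1.81%); Tbx3 in KO against WT at day 0 (-0.12 to 0.97); Nanog (-0.57 to 0.50), Esrrb (-2.03 to 1.04) and Prdm14 (-1.07 to 2.42) in the interaction to day 2; and Esrrb (-1.64 to 1.58) and Prdm14 (-1.51 to 0.043) in that to day 10. The cause was not tested. Depth limits Esrrb and Prdm14 in KO at days 0 and 2, where 3 counts or fewer were seen.

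The letters A and B were not taken as pairs, since the labels do not say what they mark and the libraries of day 10 did not share their differences. The A minus B differences over genes correlated at 0.741 to 0.812 among the 4 groups of days 0 and 2 and at -0.061 to 0.0492 wherever a day 10 group was involved. With the letter as a replicate block, 1 factor was called in the interaction to day 2, and 91 genes over all. A replicate block for days 0 and 2 only was chosen after seeing the data. It gave 7 called factors between the genotypes at day 0, and 3 for the day 2 interaction. Over all genes it called 4360 and 1109. The main fit called 386 genes higher and 801 lower at day 0, and 18 higher and 10 lower in that interaction. Nr0b1, whose A library exceeded B by 1.5-fold to 1.88-fold in all 4 groups of days 0 and 2, passed with the replicate block in KO against WT at day 0 (FDR 0.0085) and day 2 (FDR 0.013), and from day 0 to day 2 in WT (FDR 0.030) and KO (FDR 0.016). With the same replicate block it also passed at WT day 10 against day 2 (FDR 0.015), KO day 10 against day 0 (FDR 0.0080) and in the interaction to day 10 (FDR 0.049), as did Nanog in that interaction (FDR 0.029) and Nr5a2 at KO day 10 against day 2 (FDR 0.030).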
